A study of Mus musculus with 2 samples.

Results

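Fibroblasts of the gut wall fall into classes that are told apart by surface receptors and transcription factors, and 8 genes used for this purpose were followed here: Pi16, Dpt, Cd34, Thy1, Pdgfra, Pdgfrb, Foxl1 and Gli1. They were taken by symbol, with all transcript rows of a symbol summed, and all 8 were among the 27874 gene symbols measured. RNA came from the colon of C57BL/6J mice, labelled as lamina propria, in 1 library of genotype Control and 1 library of genotype K14/hyal1. The latter name combines keratin 14, whose promoter is active in basal cells of stratified epithelia such as skin, with Hyal1, an enzyme that degrades hyaluronan; other alleles, agents, ages and sampling times were not given in the sources used here. In its title the study names communication between epithelia through stromal fibroblasts and hyaluronan. The question for these genes is how the fibroblast compartment of the colon differs between the genotypes. With 1 library a genotype there was no test, and every difference below is one between a pair of libraries.

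In the gut, Pi16 and Dpt are known as markers of adventitial fibroblasts, which surround vessels in the submucosa, and Cd34 is shared by these and by other fibroblasts of the deep mucosa. Pdgfra is the general fibroblast receptor and is most abundant in telocytes, cells under the epithelium that also express Foxl1 and supply WNT and BMP signals to the crypt. Gli1 is both a transcription factor and a target of hedgehog signalling and marks mesenchymal cells that support crypt stem cells, while Pdgfrb and Thy1 are found on pericytes and on several fibroblast classes.

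Levels are in CPM, reads scaled to a library total of 1000000, and 1 read was worth 0.0164 CPM in the Control library and 0.0345 CPM in the other. The table held an estimated 25446285 and 13812963 reads. Brackets give exact 95% intervals (Poisson for a level, Clopper-Pearson for a ratio), which cover counting error only and none of the variation between mice. The tissue label was checked against fixed marker lists. Epithelial genes (10, among them Epcam and Krt8) summed to 3944 and 4247 CPM in Control and K14/hyal1 and smooth muscle genes (11, among them Acta2 and Myh11) to 3616 and 4094 CPM, against 560.3 and 1230 CPM for 15 fibroblast matrix genes. Epithelium and muscle were thus present in both libraries. Hyal1 itself was at 3.36 and 3.77 CPM, a ratio of 1.12 (0.879 to 1.42).

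Markers of adventitial and general fibroblasts had the higher level in K14/hyal1, and for the hedgehog marker no difference was detectable at this depth. Pi16, Cd34, Dpt and Pdgfra were at least 2-fold higher, Pdgfrb and Thy1 were 1.71-fold and 1.63-fold higher, short of the 2-fold rule, Foxl1 was 2.01-fold higher but below the filter on low levels, and Gli1 was close to the ratio of the median gene. A gene was called different when log2((K14/hyal1 + 1)/(Control + 1)) in CPM was at least 1 in size, and a filter kept genes with a mean of both libraries of at least 2.31 CPM. By this rule 4 of the 8 members were higher and 0 lower. Among the 13563 genes past the filter, 3.75% were called higher and 1.54% lower; over all 27874 symbols without a filter 2.11% were called higher. The median log2 ratio was 1.39 over the 7 members past the filter and 0.21 over all genes past it. Pi16 passed the filter only through its K14/hyal1 level, so the figures over the 7 are a description. In a bulk sample, more cells of a type and more RNA in each cell cannot be told apart.

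**Figure D1:**
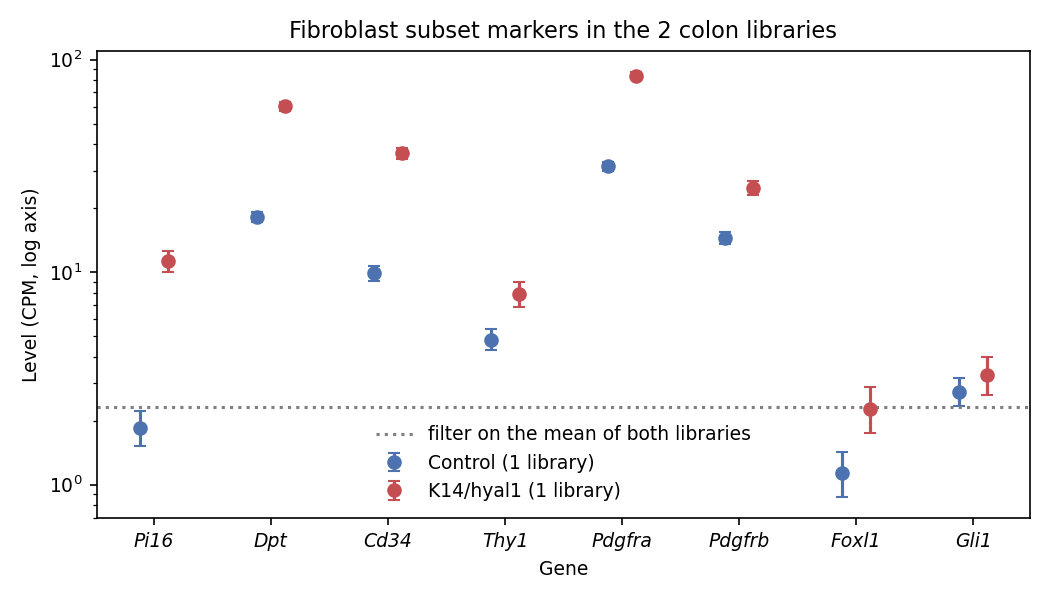
Level in CPM (log axis) of each marker in the Control library and the K14/hyal1 library, with exact Poisson 95% intervals for counting error. Intervals of both libraries are apart for all genes but Gli1, whose levels were 2.73 and 3.27 CPM, and the dotted line is the filter at 2.31 CPM, which applies to the mean of both libraries.

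Pi16, a secreted peptidase inhibitor-like protein, had the largest ratio of the 8. Its Control level was 1.85 CPM (1.52 to 2.22), from 113 estimated reads, and its K14/hyal1 level 11.2 CPM (10.05 to 12.5), from 326. The ratio was 6.07 (4.89 to 7.59), and 99.5% of the genes past the filter had a lower log2 ratio. Dpt, dermatopontin, a small matrix protein that binds decorin and collagen, went from 18.2 CPM (17.1 to 19.3) in the Control library to 60.1 CPM (57.3 to 63.0) in the other. This is 3.31-fold higher (3.07 to 3.57). Cd34, a sialomucin of the cell surface, was at 9.87 CPM (9.10 to 10.7) and 36.3 CPM (34.1 to 38.5), or 3.67-fold higher (3.32 to 4.07). Pdgfra, the receptor tyrosine kinase for PDGF-A and PDGF-C, was at 31.4 CPM (30.05 to 32.9) and 84.0 CPM (80.7 to 87.4), or 2.67-fold higher (2.52 to 2.84). In each of these genes the intervals of both libraries were far apart, and the K14/hyal1 library was the higher one.

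The other receptors differed less. Pdgfrb, the receptor for PDGF-B and a standard pericyte marker, stood at 14.5 CPM (13.6 to 15.5) against 24.8 CPM (23.0 to 26.7), Control first, a ratio of 1.71 (1.55 to 1.89). Thy1, the GPI-anchored surface protein CD90, was at 4.81 CPM (4.28 to 5.39) and 7.86 CPM (6.87 to 8.95), a ratio of 1.63 (1.37 to 1.95). Both ratios were under the 2-fold rule, with the whole interval above 1 and below 2. The median gene past the filter had a ratio of 1.18, and the middle 50% of genes lay between 0.949 and 1.44, so both stood above the bulk of genes while their intervals did not all clear it: that of Thy1 began at 1.37.

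The transcription factor genes were the least abundant. Foxl1, a forkhead factor, had a Control level of 1.13 CPM (0.879 to 1.43), from 69 estimated reads, and a K14/hyal1 level of 2.27 CPM (1.76 to 2.89), from 66. Its ratio was 2.01 with a wide interval (1.42 to 2.86). It did not pass the filter, and its log2 ratio with a pseudocount of 1 was 0.62, which is short of the rule because the pseudocount weighs on low genes. Gli1 was at 2.73 CPM (2.33 to 3.18; 167 estimated reads) and 3.27 CPM (2.65 to 4.0; 95 estimated reads), a ratio of 1.20 (0.921 to 1.55) whose interval holds both 1 and the median gene. A 2-fold difference of Gli1 between these libraries lies outside that interval.

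**Figure D2:**
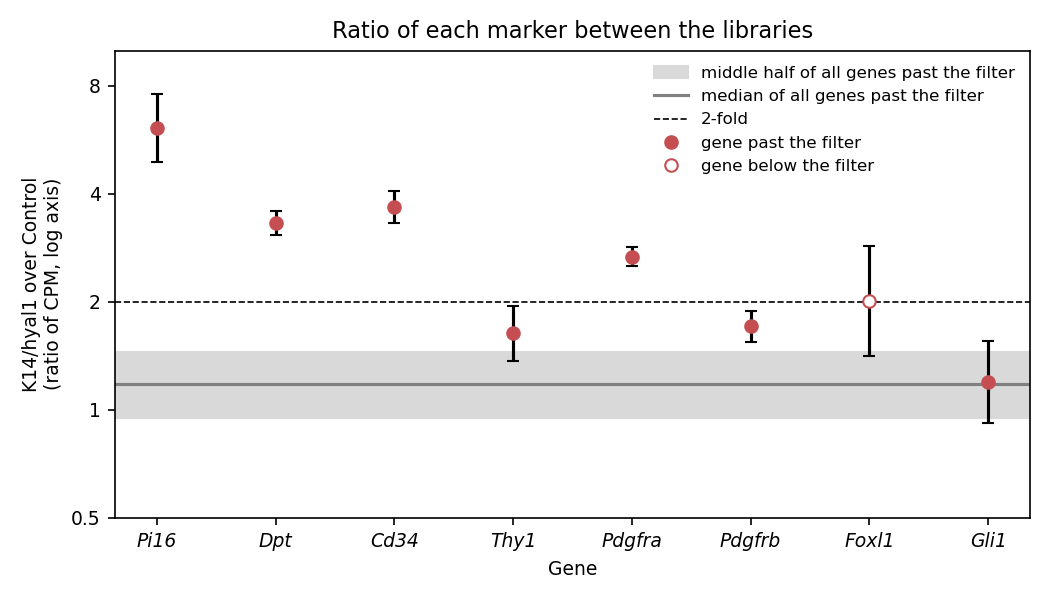
Ratio of CPM, K14/hyal1 over Control (log axis), for each marker with its Clopper-Pearson 95% interval for counting error. Pi16, Dpt, Cd34 and Pdgfra lie above the dashed 2-fold line with their whole intervals, Pdgfrb and Thy1 below it, and Gli1 (1.20) lies inside the grey band that holds the middle 50% of all genes past the filter.

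Per kilobase of annotated exon, the order of the genes within a library can be compared. Dpt was the most abundant in both, at 10.5 CPM per kb (Control) and 34.9 CPM per kb (K14/hyal1), followed by Pdgfra at 3.14 and 8.38 CPM per kb. Pi16 moved from the lowest of the 8 in Control (0.291 CPM per kb) to the 6th place in K14/hyal1 (1.77 CPM per kb), above Foxl1 (0.841) and Gli1 (0.655). Cd34 moved from the 5th place (1.35 CPM per kb), below Pdgfrb (2.65) and Thy1 (1.61), to the 3rd place (4.97 CPM per kb). Neighbours whose counting intervals overlapped were Foxl1 with Pi16 and with Gli1 and Cd34 with Thy1 in Control, and Cd34 with Pdgfrb (4.53 CPM per kb) and Foxl1 with Gli1 in K14/hyal1. Lengths were those of all annotated exons of a gene, from 1724 bases for Dpt to 10024 for Pdgfra, and a library that uses only some of the exons would have a higher value per kilobase.

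The markers therefore did not keep their proportions. Relative to Pdgfra, Pi16 was 2.27 times as abundant in K14/hyal1 as in Control, Cd34 1.38 times and Dpt 1.24 times. Thy1 was 0.611 times and Gli1 0.448 times as abundant relative to Pdgfra. For Foxl1 this figure was 0.754 times, which is within counting error, since the interval of its ratio (1.42 to 2.86) holds that of Pdgfra (2.52 to 2.84). Pdgfra over Pdgfrb was 2.17 in Control and 3.38 in K14/hyal1. Pi16 over Gli1, an adventitial against a hedgehog-responsive marker, was 0.677 and 3.43, the widest of the shifts between members computed here.

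The promoters of Pi16, Dpt, Cd34 and Pdgfra, the 4 genes called higher, were compared to see what they share in sequence. The sequences are from RefSeq (GRCm38.p6), 250 bases before to 50 bases after the start, all on the plus strand. These 4 were the only ones of the 8 members with a promoter there, so no member outside the 4 could be set beside them. Capitals mark the motifs found. Pi16 lies at chr17:29318632-29318931, Dpt at chr1:164796413-164796712, Cd34 at chr1:194938571-194938870 and Pdgfra at chr5:75152001-75152300. In the GENCODE M21 annotation Pi16 starts at 29317680, ahead of its window, so this window lies inside the annotated gene. The windows of Dpt, Cd34 and Pdgfra hold the annotated gene start.
Pi16: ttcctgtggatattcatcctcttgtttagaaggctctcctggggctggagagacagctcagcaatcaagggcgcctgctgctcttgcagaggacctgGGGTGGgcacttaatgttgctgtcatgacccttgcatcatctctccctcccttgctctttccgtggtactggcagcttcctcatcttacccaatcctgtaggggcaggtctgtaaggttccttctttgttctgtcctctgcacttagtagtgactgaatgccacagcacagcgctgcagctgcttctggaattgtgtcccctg
Dpt: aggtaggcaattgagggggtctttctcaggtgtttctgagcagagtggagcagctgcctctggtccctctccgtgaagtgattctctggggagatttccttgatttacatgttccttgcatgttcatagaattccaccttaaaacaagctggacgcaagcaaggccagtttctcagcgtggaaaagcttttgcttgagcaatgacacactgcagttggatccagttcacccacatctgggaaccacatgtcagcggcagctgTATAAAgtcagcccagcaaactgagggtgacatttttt
Cd34: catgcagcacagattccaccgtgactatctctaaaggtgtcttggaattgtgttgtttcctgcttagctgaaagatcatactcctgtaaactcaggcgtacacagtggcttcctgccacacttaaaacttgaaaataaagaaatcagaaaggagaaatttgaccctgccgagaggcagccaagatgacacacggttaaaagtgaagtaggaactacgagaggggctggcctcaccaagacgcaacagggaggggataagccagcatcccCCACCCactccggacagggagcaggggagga
Pdgfra: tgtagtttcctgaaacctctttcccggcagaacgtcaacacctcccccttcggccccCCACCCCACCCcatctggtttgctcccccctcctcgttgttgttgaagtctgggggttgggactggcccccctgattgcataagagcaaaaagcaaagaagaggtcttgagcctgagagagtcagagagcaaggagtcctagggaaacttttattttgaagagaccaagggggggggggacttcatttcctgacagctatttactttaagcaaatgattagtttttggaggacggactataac

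The windows of Pi16, Dpt and Pdgfra held fewer CpG pairs than the median promoter, and that of Cd34 was at the median. Pi16 had 3, Dpt 4, Pdgfra 5 and Cd34 7, against a median of 7 over 32851 promoters, and the observed over expected CpG ratio was 0.141, 0.226, 0.256 and 0.374, against a median of 0.384. GC content ran from 48.7% in Dpt to 53.3% in Pi16, around the median of 52.7%. The motifs searched on both strands were TATAAA, the AP-1 site TGACTCA, the GLI site GACCACCCA, the GC box GGGCGG and the GT box CCACCC, whose letters the GLI site contains. TATAAA was found in Dpt, 12 bases after the RefSeq start, and in 13.6% of all promoters. CCACCC was found in Pi16 (on the minus strand), in Cd34 and, as 2 copies that overlap by 1 base, in Pdgfra, and in 31.5% of all promoters. TGACTCA (5.20% of all promoters), GGGCGG (35.7%) and GACCACCCA (0.253%) had no match in these windows. A match is a description of the letters and not a binding site.

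Several members have more than 1 transcript row in the deposited table, and the rows carry no transcript names. Whole reads were recovered for fewer rows than genes (for values up to 300 reads, 36.3% and 37.5% of row values were within 0.1 of a whole read in Control and K14/hyal1, against 81.6% and 82.9% of gene values), so shares between rows are estimates. Every row of every member except the empty second row of Pi16 had the higher level in K14/hyal1. Of the 4 rows of Cd34, the first held 18.0% of the gene in Control (1.78 CPM) and 39.3% in K14/hyal1 (14.3 CPM), an 8.02-fold difference in level. The second row went from 69.8% (6.89 CPM) to 52.3% (19.0 CPM), or 2.76-fold. The difference in Cd34 was thus unevenly spread over its rows, although the rows other than the first were also 2.50- to 2.76-fold higher.

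Of the 8 rows of Pdgfra, the first held 64.5% of the gene in Control and 70.0% in K14/hyal1 (20.3 and 58.8 CPM, 2.90-fold), and the sixth 27.3% and 20.3% (8.58 and 17.1 CPM, 1.99-fold). The second row of Pdgfra held under 1 estimated read in Control and 53.9 estimated reads in K14/hyal1, or 2.21% of the gene there. Pi16 was carried mostly by its last row, with 77.7% in Control and 84.3% in K14/hyal1, which was 6.59-fold higher. Pdgfrb kept its shares, with 69.2% and 69.9% in its first row. Dpt, Thy1, Foxl1 and Gli1 had 1 row each.

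**Figure D3:**
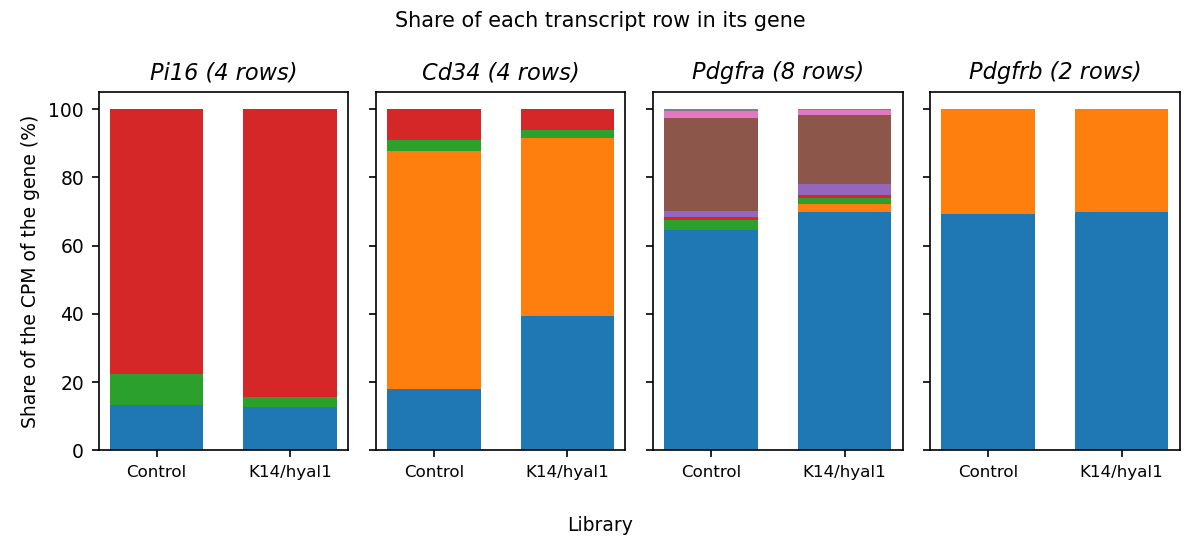
Share (%) of the CPM of a gene held by each of its transcript rows in the Control and K14/hyal1 libraries, for the 4 members with more than 1 row; a colour is a row within a gene, in file order from the bottom. In Cd34 the first row went from 18.0% to 39.3%, while the shares in Pdgfrb differed by under 1 percentage point.

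Members could share reads with genes that overlap them in the annotation (GENCODE M21 on mm10). Foxl1, on chromosome 8 at 121127940-121130644, lies inside Gm20388, a gene on the same strand with 12.4 and 23.9 CPM in Control and K14/hyal1, so its reads are uncertain. Cd34, on chromosome 1 at 194938819-194961279, overlaps Gm16897 on the other strand, at 1.76 and 2.19 CPM. Gli1, on chromosome 10 at 127329882-127341974, overlaps the end of Arhgap9 on the other strand, at 0.360 and 0.517 CPM. The kit marks strand, but whether the counting used it was not given in the sources used here. Dpt overlaps Gm32569 on the other strand, at 0.0982 and 0.138 CPM, and Pi16 overlaps AC162182.1 on the other strand, which was not measured. Pdgfra overlaps Gm42803 (0.147 and 0.138 CPM), Gm42802 (0.000872 and 0 CPM) and Mir7025, which was not measured. Thy1, on chromosome 9 at 44043384-44048579, and Pdgfrb overlap no annotated gene.

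The authors' deposited table gives the same levels for the 7 members it lists, with false discovery rates from a model that is not described in the sources used here. In the authors' deposited table the rate was 0.000319 for Pdgfra, 0.000842 for Dpt and 0.0169 for Cd34. In the authors' deposited table it was 0.429 for Pi16, whose ratio was the largest but whose level was low, 0.953 for Pdgfrb and 0.9998 for Thy1 and Gli1. Foxl1 is not listed there, and 2.26% of all 15869 genes in the authors' deposited table had a rate under 0.05. Each genotype has 1 colon library here, so these rates are not read as a spread between mice.

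Other genes of adventitial fibroblasts were in part 2-fold higher. Of 14 further genes of this class, 13 passed the filter, with 8 higher, 0 lower, 5 called neither and a median log2 ratio of 1.38. That median was 0.58 with a pseudocount of 10 and 0.71 with the filter at 10 CPM. Beside this and the lists below, 3.75% of all genes past the filter were called higher and 1.54% lower. The median log2 ratio of all these genes was 0.21. Mfap5, a microfibril protein at 1.55 CPM in Control, passed the filter only through its K14/hyal1 level, so count and median are a description. The 5 called neither were Dpp4, Cd55, Sema3c, Anxa3 and Ly6c1, with ratios from 1.22 to 1.87. Fbn1, the microfibril protein fibrillin, was highest (20.2 and 131 CPM in Control and K14/hyal1, 6.47-fold), and Anxa3, an annexin, was lowest (56.6 and 69.0 CPM, 1.22-fold). Dpp4, the surface peptidase often used with Pi16 to sort these cells, was at 10.2 and 15.3 CPM, a ratio of 1.499 (1.32 to 1.70). Cd55, a complement regulator, was at 31.9 and 44.2 CPM. Dpp4 and Cd55 are also made by gut epithelium; these, Sema3c, Ly6c1 and Mfap5 were named after their values were seen.

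Of the 15 general fibroblast matrix genes 14 passed the filter, with 5 higher and 0 lower, against 3.75% higher over all genes past it. Their median log2 ratio was 0.87, against 0.21 over all genes past the filter. Serpinf1, named for this reason, passed the filter only through its K14/hyal1 level and is 1 of the 5. Dcn, the proteoglycan decorin, was highest (53.2 and 198 CPM, 3.73-fold), and Col1a1, a chain of collagen I, was lowest (42.0 and 28.7 CPM, 0.684-fold, 0.632 to 0.740). The gene nearest the middle was Fbln1, fibulin 1, at 8.18 and 15.4 CPM, with Col6a2 at 37.7 and 71.4 CPM on the other side. Set against this list, Pi16 exceeded its median log2 ratio by 1.23 and all 14 of its genes on this scale; with a pseudocount of 10 its excess over the median was 0.23. Cd34 exceeded the median by 0.91, Dpt by 0.80 and Pdgfra by 0.52. Pdgfrb (-0.14), Foxl1 (-0.25), Thy1 (-0.26) and Gli1 (-0.68) were below it. The 8 markers thus fell into 4 above and 4 below the median matrix gene, with Foxl1 0.03 above it under a pseudocount of 0.1.

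**Figure D4:**
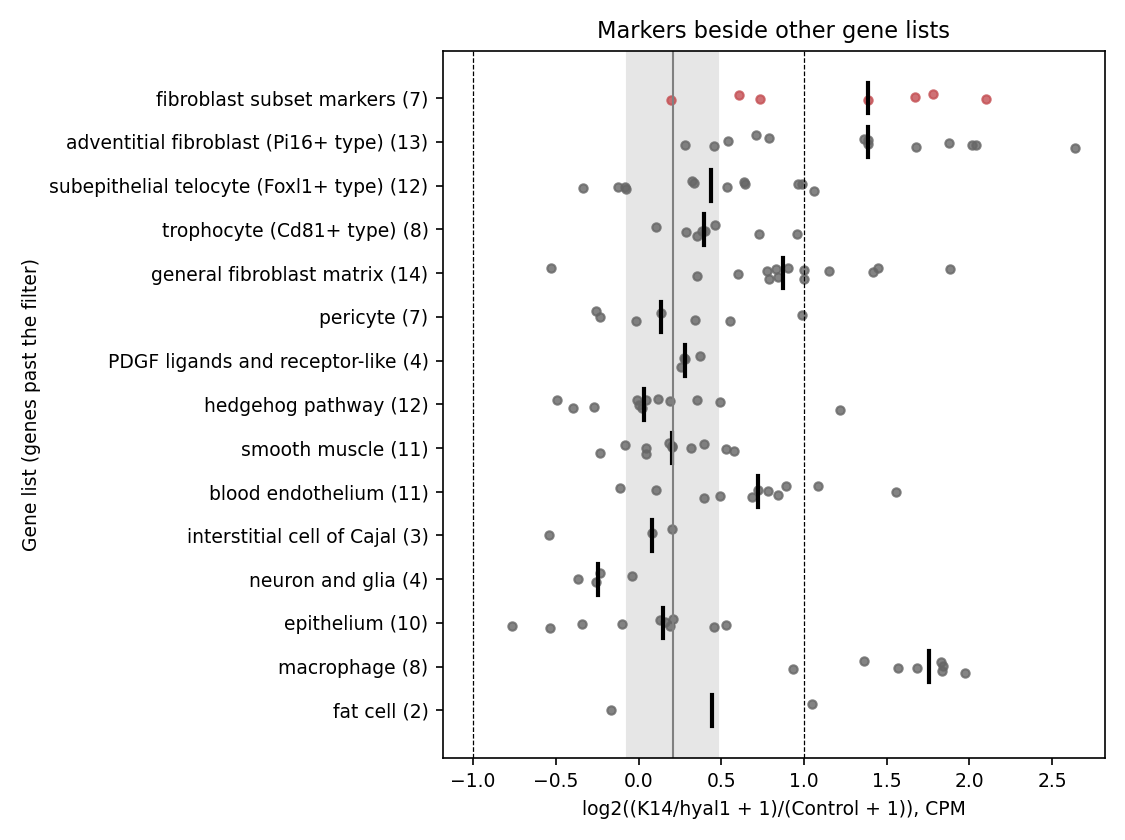
log2((K14/hyal1 + 1)/(Control + 1)) in CPM of each gene past the filter in the markers (red, 7 genes) and in the other lists (grey); black bars are medians, the grey band holds the middle 50% of all genes and the dashed lines mark 2-fold. The markers (median 1.39), the adventitial list (1.38) and the macrophage list (1.76) have medians to the right of the 2-fold line.

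Genes of telocytes, the class marked by Foxl1 and by high Pdgfra, differed less, by a margin that depended on the filter. Of 16 such genes, 12 passed the filter, 1 was higher, 0 were lower and the median log2 ratio was 0.44 (0.19 with a pseudocount of 10). With the filter at 10 CPM it was 0.64, against 0.71 for the adventitial list, so the lists were close there. Bmp4 was the higher one (8.94 and 19.7 CPM, 2.21-fold), and Foxf2, a forkhead factor of gut mesenchyme, was lowest (5.78 and 4.38 CPM, 0.757-fold). Bmp5 (14.6 and 29.9 CPM, 2.05-fold) and Edil3 (4.70 and 10.1 CPM, 2.15-fold) had plain ratios above 2 but were under the rule on the log2 scale. Bmp2 (32.5 and 30.7 CPM, 0.945-fold) and Bmp3 (34.4 and 32.4 CPM, 0.941-fold) had ratios near 1. Bmp2, Bmp3, Bmp5 and Edil3 were named after their values were seen. The part of other cell types, such as epithelium, in the levels of this list was not tested. Trophocytes are deep Cd81+ cells that feed the crypt base. Of 10 of their genes 8 passed the filter with 0 higher, 0 lower and a median of 0.39. This was 0.19 with a pseudocount of 10 and 0.60 with the filter at 10 CPM. Cxcl12 was highest (14.5 and 29.2 CPM, 2.00-fold, under the rule on the log2 scale) and Wnt2b lowest (6.38 and 6.93 CPM). Grem1, the BMP inhibitor that defines these cells, was at 29.1 and 48.9 CPM and was picked after its value was seen.

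The ligands for the PDGF receptors were near the median gene. Pdgfa was at 13.7 and 16.6 CPM in Control and K14/hyal1, a ratio of 1.21 (1.08 to 1.35). Pdgfd, a ligand of Pdgfrb, was at 8.49 and 11.3 CPM, a ratio of 1.33 (1.15 to 1.53). Pdgfb (2.41 and 3.14 CPM) and Pdgfc (2.15 and 2.81 CPM) had ratios of 1.30 and 1.31 with intervals from 0.992 and 0.981 upward, and Pdgfrl, a receptor-like gene, was below the filter at 0.507 and 0.482 CPM. So 0 of the 4 genes past the filter reached 2-fold, with a median log2 ratio of 0.28, while the receptor genes had log2 ratios of 1.39 (Pdgfra) and 0.74 (Pdgfrb).

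The hedgehog pathway around Gli1 was mixed. Of 15 genes, 12 passed the filter, 1 was higher and 0 lower, with a median log2 ratio of 0.03 that was negative under 3 of 7 alternatives (-0.18 after scaling to the median gene). Ihh, the ligand made by colon epithelium, was at 22.6 and 23.3 CPM, a ratio of 1.03 (0.939 to 1.13). Shh was at 1 estimated read in Control, 0.0164 CPM, and at 0 in K14/hyal1, where the exact interval reaches 0.127 CPM. Dhh was at 0.147 and 0.241 CPM. Of the genes that, like Gli1, are induced by the pathway, Hhip, a decoy receptor for the ligands, was the higher one (18.6 and 44.5 CPM, 2.40-fold, 2.21 to 2.60). Ptch1, the receptor that holds the pathway off, was at 31.9 and 45.3 CPM (1.42-fold, 1.32 to 1.52). The interval of Hhip lay above those of Ptch1 and of Gli1, which overlapped each other.

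The signal transducer Smo was at 10.6 and 12.3 CPM and the inhibitor Sufu at 6.66 and 4.82 CPM. The factors Gli2 and Gli3 were at 4.09 and 2.62 CPM (0.640-fold, 0.488 to 0.831) and at 7.99 and 8.13 CPM. The co-receptors Boc, Cdon and Gas1 had ratios of 1.32, 0.994 and 1.09, and the ligand-processing genes Disp1 and Hhat ratios of 1.002 and 0.781. None of these reached 2-fold in either direction.

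Cd34, Thy1 and Pdgfrb are also expressed outside fibroblasts, and markers of those cells were read beside them. Blood endothelium, which carries Cd34, had 11 of 12 genes past the filter, 2 higher, 0 lower and a median log2 ratio of 0.72; the 12 genes summed to 74.1 and 125 CPM, a ratio of 1.68 against 3.67 for Cd34. Both genes called higher, Tek and Cldn5, were at 2.21 and 1.15 CPM in Control and passed the filter only through their K14/hyal1 levels, so their count is no result, and the median was 0.28 with a pseudocount of 10. Tek, an angiopoietin receptor, was highest (3.82-fold) and Eng, endoglin, lowest (0.915-fold). Mast cell genes, 9 in all, were below the filter and summed to 1.05 and 3.61 CPM, with Fcer1a at 0 reads in both libraries. The part of endothelium and of mast cells in the Cd34 difference was not tested.

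Thy1 marks mouse T cells and neurons as well. The 12 T cell genes were all below the filter and summed to 3.31 and 4.93 CPM. The defining genes Cd3e, Cd3d and Cd3g were each at 0.103 CPM or less, except Cd3g in K14/hyal1 (0.207 CPM). Neuron and glia genes, 4 of 10 past the filter, had a median of -0.25 with 0 called in either direction. Among them Ret was at 5.35 and 4.31 CPM, Prph at 3.89 and 3.17 CPM and Tubb3 at 3.89 and 2.79 CPM. Pericyte genes, read beside Pdgfrb, had 7 of 10 past the filter, 0 called and a median of 0.14. That median was negative under 3 of 7 alternatives. Kcnj8, a potassium channel gene, was highest (4.40 and 9.72 CPM, 2.21-fold, 1.86 to 2.62, under the rule on the log2 scale). Notch3 was lowest (8.75 and 7.14 CPM). The 10 pericyte genes summed to 158 and 191 CPM, a ratio of 1.21 against 1.71 for Pdgfrb. The part of T cells, neurons and pericytes in the Thy1 and Pdgfrb differences was not tested.

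Other tissue components were read in the same way. Smooth muscle genes had 0 of 11 called, from Actg2 (1.49-fold) to Mylk (0.849-fold), and epithelial genes 0 of 10, from Krt18 (1.45-fold) to Krt20 (0.587-fold). Genes of interstitial cells of Cajal, pacemaker cells that lie beside Pdgfra+ cells in the muscle, were Kit (14.3 and 16.6 CPM), Ano1 (124 and 131 CPM) and Etv1 (6.89 and 4.41 CPM), with 0 called. Mesothelial genes, 7 in all, were below the filter and summed to 0.552 and 0.312 CPM. Of 7 fat cell genes, read because Pi16+ and Dpt+ cells are abundant in fat, 2 passed: Fabp4 (3.99 and 9.34 CPM), which endothelium also expresses, and Pparg (16.4 and 14.5 CPM). The fat cell gene Adipoq was at 0.180 and 0.138 CPM, and Lep and Retn were at or under the level of 3 reads in both libraries.

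Macrophage genes were also higher in K14/hyal1. Of 9 genes 8 passed the filter, 7 were higher, 0 lower, and the median log2 ratio was 1.76, with Lyz2 highest (20.7 and 84.2 CPM, 4.07-fold) and Cd68 lowest (1.78 and 4.31 CPM, 2.42-fold, under the rule on the log2 scale). Cd68 and Adgre1 (1.31 CPM in Control), of which Adgre1 is among the 7, passed the filter only through their K14/hyal1 levels, and the median was 0.96 with a pseudocount of 10, so count and median are a description. The list of 9 summed to 63.1 and 230.5 CPM. Over all genes past the filter, 3.75% were called higher and the median log2 ratio was 0.21. The RNA of the libraries also differed in kind: the ribosomal RNA entry Rn18s-rs5 had 5826 CPM (Control) and 34329 CPM (K14/hyal1), and the 15 mitochondrially encoded genes summed to 44208 and 27179 CPM. What part the cell makeup of each piece of tissue, or the composition of each library, has in the marker differences was not tested.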

How the data were processed

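RNA of 2 mouse colon libraries, 1 Control and 1 K14/hyal1, was analysed from the deposited tables. Per the labels' protocols, libraries were made with a stranded poly(A) kit and run on an Illumina instrument. Per the submitters' processing notes, Partek and mm10 were used; aligner and counting rule were not given in the sources used here. No header names the unit of the main table; the deposited values, 72178 transcript rows, were read as CPM because low values were multiples of 1 step per library. An offset of 0.0001 was taken off each deposited row, rows were summed by symbol, and reads were estimated as CPM over the step. The deposited CPM columns sum to 416434 and 475975, so part of the scaled reads is outside the table.

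The authors' gene table holds mean CPM (least-squares means by its headers), a ratio of these means, and p-values with false discovery rates. In these headers each genotype stands with a second level, Control, whose meaning is not stated there. The model for the authors' p-values was not given in the sources used here. A further table and a skin sheet were not used. The filter, 2.31 CPM, is the median mean of the 27125 symbols above 0. With 1 library a group there was no test, and too small a share of values came out as whole reads for a count model.

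The members and gene lists were chosen with earlier results of these data known. Named genes were the 8 members, every PDGF and hedgehog gene, the highest and lowest gene of each other list, all genes past the filter in lists with fewer than 5, and the matrix genes nearest the median; others are marked in the text, and a few genes that this rule picks are not reported here. Fbln1 and Col6a2 bracket that median. Coordinates and exon lengths are from GENCODE M21, promoters from RefSeq. Alternatives were pseudocounts of 0.1 and 10, 3 scalings, the authors' table, the largest row only, other filters and a 1.5-fold threshold. Steps were tested on simulated data. Computation used scipy 1.17.1, numpy 2.4.6 and pandas 2.3.3 under Python 3.11.15, and matplotlib 3.10.9 for plots.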

Additional observations from a re-analysis of the deposited data

How the results depend on the processing

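Of the 8 members, 4 were at least 2-fold higher as reported, under TMM scaling, with the median gene as the scale, with totals that leave out the 20 most abundant genes, with a pseudocount of 0.1, without a filter, with the authors' gene table and with the largest row only. It was 3 with a pseudocount of 10, where Pi16 had a log2 ratio of 0.84, 3 with a filter at a mean of 10 CPM, which Pi16 does not pass, and 6 at 1.5-fold, where 17.7% of genes were called higher. The median log2 ratio of the members past the filter was 1.39 as reported, 0.84 with a pseudocount of 10, 1.16 with the median gene as the scale and 1.06 without a filter, which adds Foxl1; the cause of the first of these is the pseudocount's weight on low genes. That scaling took the median of all genes from 0.21 to about 0, and the members stood 1.16 above it against 1.18 as reported. Gli1 ranged from 0.02 to 0.25 over its alternatives.

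Counts over all genes moved more. Against 509 higher and 209 lower as reported, there were 126 and 76 with a pseudocount of 10, 268 higher with the filter at 10 CPM and 2401 and 663 at 1.5-fold. They were 296 and 346 with the median gene as the scale, 325 and 310 under TMM and 338 and 295 with the most abundant genes left out, so that 46.1%, 51.2% and 53.4% of the calls were higher, against 70.9% as reported. Of the other values, 48 moved by more than a limit based on the counting error of the members and 128 did not. For a value of a single member this limit came from its own counting interval. List medians have no counting error of their own, and they were set against the median of the members' limits. No called value changed sign. The median of 6 of 14 gene lists, none of them past 2-fold, did change sign: those of pericyte, hedgehog, Cajal cell and epithelial genes were negative under 3 of 7 alternatives each, of fat cell genes under 2 and of smooth muscle genes under 1. No paired analysis was possible because each group has 1 library. Low depth limits Foxl1 and Gli1, with 66 and 95 estimated reads in K14/hyal1.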
